A study of Mus musculus with 6 samples.

Results

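Cholesterol and fatty acids are both built from acetyl-CoA, and the genes of both routes are the subject here. The set held 30 genes that were chosen by symbol from a list of enzymes and regulators, and all 30 were found among the 22800 gene symbols of the deposited table. Of these, 18 encode enzymes of the sterol branch, 6 encode regulators and a sterol carrier, and 6 encode enzymes of the fatty acid branch. RNA was measured in cells of mouse bronchoalveolar lavage fluid, the saline wash of airways and alveoli, after vehicle (3 libraries, numbered 2, 3 and 4) or after 20 µg of sulfatide injected into the peritoneal cavity (3 libraries, numbered 1, 2 and 3). Sulfatide is a sulfated glycolipid that CD1d presents to type II natural killer T cells, and the title of the series concerns what such cells do to alveolar macrophages in lung ischemia and reperfusion. The labels name neither strain, genotype nor age, and do not say whether the lungs of either group had been injured. They also do not say that each library is a separate mouse, so p-values here cover only the spread among these libraries, and that spread may be technical.

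In the sterol branch, acetyl-CoA is condensed to mevalonate, mevalonate is turned into farnesyl diphosphate, farnesyl diphosphate units are joined to squalene, and squalene is oxidised and closed to lanosterol, which further enzymes trim to cholesterol. In the fatty acid branch, ATP citrate lyase and acetyl-CoA carboxylase supply fatty acid synthase, whose product is lengthened and desaturated. Transcription of both is driven by the SREBP factors, which Scap carries to the Golgi for cleavage when membranes are poor in sterol and which the Insig proteins hold back in the endoplasmic reticulum. In macrophages, inflammatory and interferon signals are known to change both routes, and 25-hydroxycholesterol made by Ch25h restrains SREBP cleavage.

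Levels are in FPKM, in which fragments are divided by transcript length and library total, so levels of different genes can be set side by side. Summed FPKM were 1126779 to 1168474 in vehicle and 1217971 to 1249691 in sulfatide libraries, and the absolute depth is unknown. Depth relative to vehicle replicate 2, estimated from low values, was 0.85 to 1.2. Pearson correlations of log2 values across genes were 0.990 to 0.995 within groups and 0.967 to 0.982 between them. The macrophage gene Lyz2 was at 25051 to 35891 FPKM, and none of 6 macrophage genes was called. The list of 8 alveolar macrophage genes was mixed. Marco was at 59.96 to 183 FPKM, Chil3 at 19.3 to 45.6 FPKM, Ear2 at 2.19 to 3.35 FPKM and Pparg at 0.50 to 1.17 FPKM. Car4 did not exceed 0.91 FPKM, and Fabp1 and Krt79 were at 0 throughout. Siglecf, too low for a test, was at 0.08 to 0.26 FPKM in vehicle and 0.67 to 0.90 FPKM in sulfatide, without overlap. The list summed to 106 to 139 FPKM in vehicle and 86.4 to 233 FPKM in sulfatide, and none of its 4 tested genes passed. Type II epithelial cells, which make surfactant lipid, left little trace. Of 11 marker genes 5 (Sftpc, Sftpa1, Sftpd, Lamp3 and Slc34a2) were listed at 0 throughout, and the sum of the list was 86.5 to 97.8 FPKM in vehicle and 89.9 to 101 FPKM in sulfatide. Most of this sum was Napsa (68.2 to 77.8 FPKM) and Abca3 (14.4 to 15.4 FPKM), and none of the 3 tested markers passed. The T and NK cell list summed to at most 1.01 FPKM and the B cell list to at most 1.40 FPKM. The list of 8 fibroblast and mural cell genes summed to 58.6 to 76.2 FPKM in vehicle and 53.0 to 69.2 FPKM in sulfatide, with Col1a1 at 13 to 22.6 FPKM, Acta2 at 17.3 to 24.2 FPKM and Tcf21 at 0. Of its 6 tested genes 1 fell (16.7%, against 10.4% of all tested genes) and none rose. It was the mural cell receptor gene Pdgfrb, which went from 6.33 ± 0.540 to 1.83 ± 0.206 FPKM (SD, n = 3 each, 3.45-fold lower, adjusted p = 0.000137 by limma). The part of this fall in the results that follow was not tested. In such bulk samples, fewer cells of a type and less RNA per cell cannot be told apart.

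Most sterol enzymes were transcribed at moderate to high levels and most of the fatty acid enzymes at low ones. Median levels over the 18 sterol enzymes were 49.1 FPKM in vehicle and 60.2 FPKM in sulfatide, against 2.24 and 2.90 FPKM over the 6 fatty acid enzymes. Ranked by level over both groups, Fdps, Msmo1 and Cyp51 led the 30 genes, while the sterol enzymes Tm7sf2, Dhcr7 and Hsd17b7 ranked 24, 25 and 27. Of the fatty acid enzymes, Acly ranked 17, Scd2 23, Fasn 26, and Acaca, Elovl6 and Scd1 filled the last 3 places. These 3 genes did not reach the level required for testing, 1 FPKM in at least 3 libraries. The other 27 were above 1 FPKM in all 6 libraries.

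**Figure D1:**
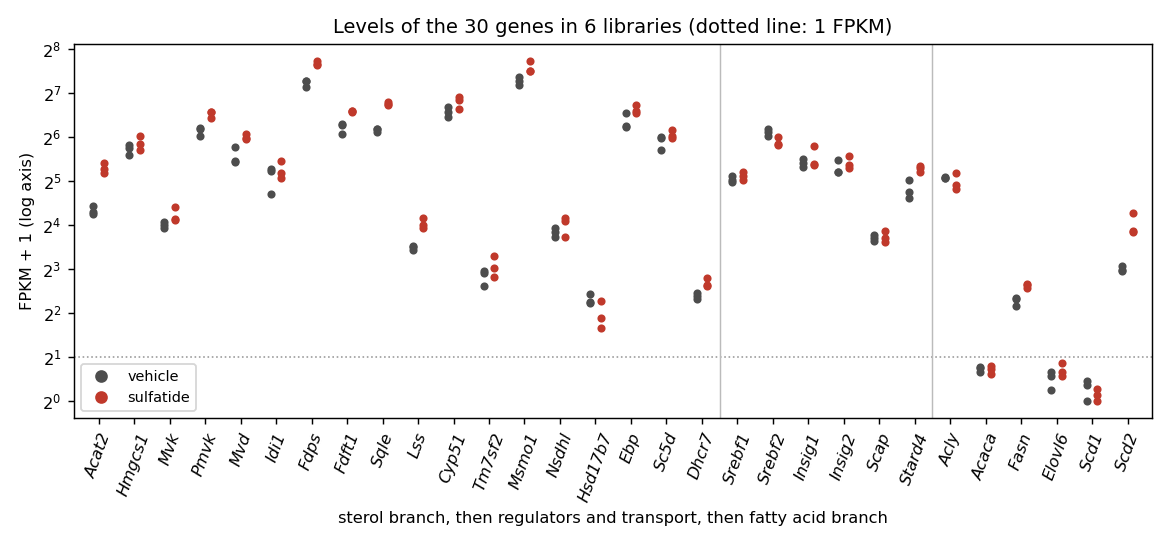
Level of each of the 30 genes in each of 6 libraries, as FPKM + 1 on a log axis (grey, vehicle; red, sulfatide; vertical lines part the sterol branch, regulators and transport, and the fatty acid branch). Fdps and Msmo1 stand highest, and Acaca, Elovl6 and Scd1 lie under the dotted line at 1 FPKM in every library.

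Sulfatide libraries held more transcript of 9 of the 27 tested genes and less of none. The 9 were 7 sterol enzymes (Acat2, Pmvk, Mvd, Fdps, Fdft1, Sqle and Lss), the sterol carrier Stard4 and the desaturase Scd2. All 9 rose without overlap of the groups, from 1.29-fold (Fdft1) to 2.16-fold (Scd2). The share, 33.3%, stands against 8.31% called higher among all 10405 genes tested, and 0 of 27 called lower against 10.4%. The call was an adjusted p below 0.05 by limma on log2(FPKM + 1), and log2 fold changes are given on this scale with their standard error. Every sulfatide library lay above every vehicle library for 14 of the 27 genes, against 18.6% of all tested genes, and below for 1, Srebf2, against 18.3%. The median log2 fold change was 0.23 over the 27 genes and 0.04 over all tested genes. After rescaling to TPM (library sums made equal), 8 of the 27 were called higher and 1, Srebf2, lower. Over all tested genes the share of calls that were higher was 44.5%, and 23.6% after this rescaling, which moved the median of all tested genes by -0.099. The counts depended on single libraries. Of these genes 5 were called higher without vehicle replicate 2, vehicle replicate 4 or sulfatide replicate 3, and 7 to 10 with another library left out. The number called higher among all tested genes, 865 with every library, became 263, 1420 and 422 on leaving out vehicle replicate 2, 3 or 4, in this order, and 345 and 439 on leaving out sulfatide replicate 1 or 3. The number called lower, 1078, became 603 on leaving out vehicle replicate 2 and 683 on leaving out sulfatide replicate 3.

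**Figure D2:**
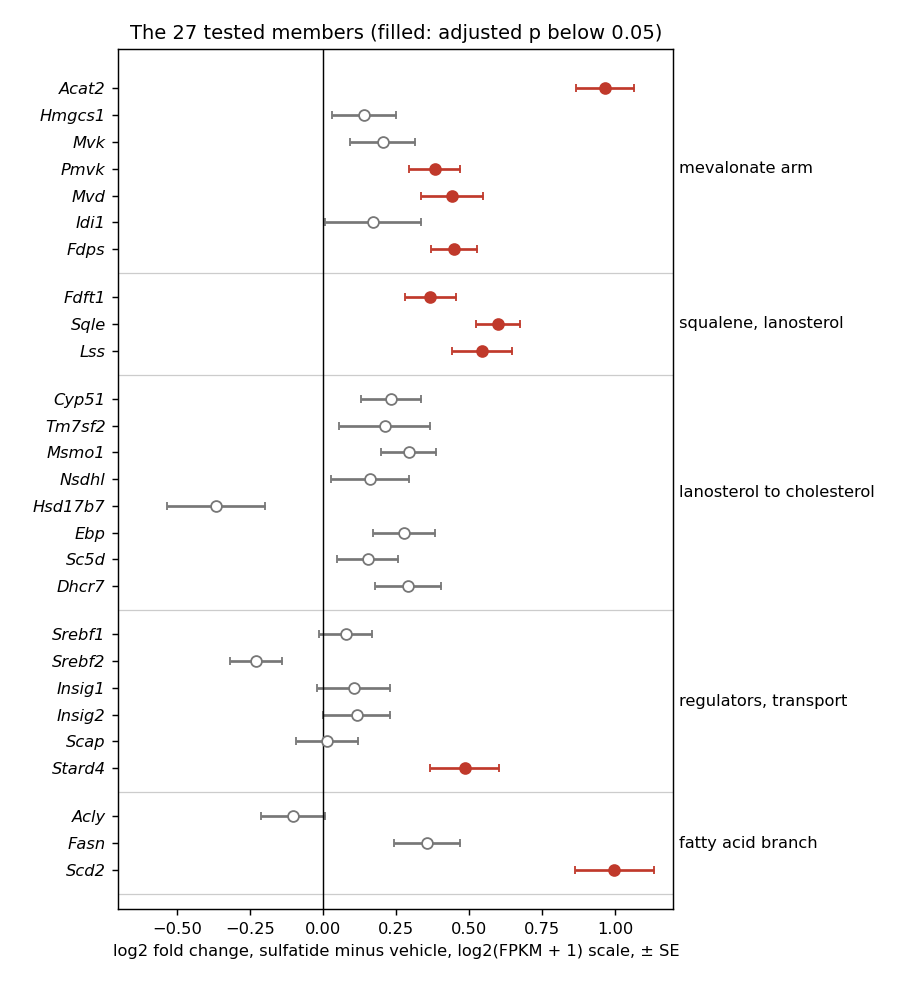
Log2 fold change (sulfatide minus vehicle, log2(FPKM + 1) scale) of the 27 tested genes with its standard error, ordered by role (filled red, adjusted p below 0.05). All 3 genes of the squalene and lanosterol steps are filled, none of the 8 from lanosterol to cholesterol is, and Acat2 and Scd2 lie farthest to the right.

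The mevalonate arm, from acetyl-CoA to farnesyl diphosphate, was measured through 7 enzymes. Of these, 4 rose (57.1%, against 8.31% of all tested genes) and 3 did not pass (median log2 fold change 0.38). Acat2, the cytosolic thiolase that joins acetyl-CoA units, is at chr17:12942890-12960747 (GRCm38). It was at 20.5, 18.6 and 18.1 FPKM in vehicle (replicates 2, 3 and 4, the order kept throughout) and at 37.6, 41.5 and 35.6 FPKM in sulfatide (replicates 1, 2 and 3). The lowest sulfatide library was far above the highest vehicle library. The log2 fold change was 0.97 ± 0.10 (adjusted p = 0.00029), and the call held in all 15 alternative analyses. The neighbouring gene Acat3 is 97.7% identical to Acat2 over 1477 bases of transcript, so how fragments were shared out between the pair is uncertain. Acat3 went from 22.3 ± 1.78 to 53.2 ± 5.43 FPKM (SD, n = 3 each, adjusted p = 0.00014 by limma), so both entries of the pair rose.

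Hmgcs1, which makes HMG-CoA, the step after the thiolase, overlapped between the groups. It was at 52.8, 55.6 and 47.1 FPKM in vehicle and 51.3, 64.1 and 56.7 FPKM in sulfatide. The log2 fold change was 0.14 ± 0.11 (95% interval -0.10 to 0.39, adjusted p = 0.392). Mvk, which phosphorylates mevalonate, had means of 15.1 and 17.6 FPKM (adjusted p = 0.229), and Idi1, the isomerase of isopentenyl diphosphate, had means of 33.1 and 37.1 FPKM (adjusted p = 0.498). A pseudogene, Gm13502, is identical to Idi1 over 684 bases, so the level of Idi1 is uncertain.

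The kinase and the decarboxylase that follow Mvk rose by modest amounts. Pmvk, at chr3:89454541-89469013, was at 71.9, 73.2 and 64.6 FPKM in vehicle and 94.6, 85.8 and 93.6 FPKM in sulfatide (log2 fold change 0.38 ± 0.09, adjusted p = 0.0182). Mvd, at chr8:122433601-122443422, was at 42.5, 53.5 and 43.2 FPKM and then 61.1, 66.1 and 62.0 FPKM (0.44 ± 0.11, adjusted p = 0.0216). Vehicle replicate 3 was the library nearest to the sulfatide group for both genes. The call of Pmvk was lost without vehicle replicate 2 (adjusted p = 0.0611) or 4 (0.0636) or sulfatide replicate 1 (0.0680) or 3 (0.0755). That of Mvd was lost without vehicle replicate 2 (adjusted p = 0.101) or 4 (0.0755) or sulfatide replicate 2 (0.0540) or 3 (0.0637).

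Fdps, farnesyl diphosphate synthase, had the highest level of the 30 genes and closes this arm. It lies at chr3:89093588-89101959. Its level was 154, 153 and 140.2 FPKM in vehicle and 203, 212 and 197 FPKM in sulfatide. The gap between the groups was wider than the range within either (log2 fold change 0.45 ± 0.08, adjusted p = 0.00494), and the call held in all 15 alternatives. How the counting placed fragments shared with its close copies is uncertain. Processed pseudogenes are 96.1 to 98.9% identical to it over 605 to 1066 bases, the overlapping gene Gm43738 is identical over 929 bases, and none of these is a row of the deposited table.

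Promoter sequence was taken from RefSeq (GRCm38.p6) for 24 of the 30 genes, 32 start sites in all, and searched on both strands from 250 bases before to 50 bases after the start. No window was found for Fdps, Fdft1, Sqle, Stard4 and Scd2, which rose, or for Scd1. These genes were not searched, so whether they hold either motif is unknown here. The sterol regulatory element, to which SREBP factors bind, was sought as TCACNCCAC and the NF-Y box, whose factor often works beside SREBP, as CCAAT. Matches of the 2 motifs did not overlap in the windows of these 24 genes. The first was found in 1 of the 32 windows, that of Hmgcs1, and in 1.24% of all 32851 windows of the table. The second was found in 21 of the 32 windows, at 20 of the 24 genes, and in 37.4% of all windows. The 250 bases before the start are shown for Hmgcs1, which holds the element and did not pass the test, for Mvd and Lss, which rose and hold NF-Y boxes, and for Acat2, which rose most in the branch and holds neither string. They lie at chr13:119690101-119690350 (plus strand), chr8:122443423-122443672 (minus strand), chr10:76531355-76531604 (plus strand) and chr17:12960726-12960975 (minus strand), and are written 5′ to 3′ on the strand of the gene with matches in capitals.
Hmgcs1: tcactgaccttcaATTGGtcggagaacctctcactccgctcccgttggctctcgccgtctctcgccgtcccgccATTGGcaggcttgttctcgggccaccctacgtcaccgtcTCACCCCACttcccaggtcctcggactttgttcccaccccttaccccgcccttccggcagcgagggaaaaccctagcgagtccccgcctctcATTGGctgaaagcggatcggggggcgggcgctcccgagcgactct
Mvd: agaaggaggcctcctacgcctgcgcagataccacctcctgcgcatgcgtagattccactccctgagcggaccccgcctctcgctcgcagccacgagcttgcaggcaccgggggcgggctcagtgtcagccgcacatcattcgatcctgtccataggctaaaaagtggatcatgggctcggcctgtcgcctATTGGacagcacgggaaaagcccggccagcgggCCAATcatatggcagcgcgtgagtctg
Lss: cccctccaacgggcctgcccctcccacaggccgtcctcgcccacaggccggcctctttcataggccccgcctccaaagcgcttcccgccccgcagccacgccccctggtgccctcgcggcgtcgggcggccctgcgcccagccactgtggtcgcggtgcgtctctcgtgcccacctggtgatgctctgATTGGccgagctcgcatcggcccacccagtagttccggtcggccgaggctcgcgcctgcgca
Acat2: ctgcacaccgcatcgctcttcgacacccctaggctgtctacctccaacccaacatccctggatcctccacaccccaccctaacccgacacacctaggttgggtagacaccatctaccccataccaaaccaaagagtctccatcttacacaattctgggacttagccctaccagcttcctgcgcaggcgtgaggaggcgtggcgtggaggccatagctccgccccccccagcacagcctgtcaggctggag
In Hmgcs1 the sterol regulatory element begins 137 bases before the start, between NF-Y boxes that begin 176 and 45 bases before it, and a further box begins 237 bases before it. The NF-Y boxes of Mvd begin 60 and 27 bases before the start and that of Lss 62 bases before it. Such matches describe the letters of these windows only, and occupancy by a factor was not measured.

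All 3 enzymes that carry farnesyl diphosphate to lanosterol rose (100%, against 8.31% of all tested genes), with a median log2 fold change of 0.54. Sqle, squalene epoxidase, a rate-limiting oxidation of the route, lies at chr15:59315077-59331192. It was at 71.4, 71.4 and 68.3 FPKM in vehicle and 106, 110.2 and 105 FPKM in sulfatide. Libraries of a group differed by little beside the step between groups, 70.3 ± 1.80 to 107 ± 2.85 FPKM (SD, n = 3 each, 1.52-fold). The log2 fold change was 0.60 ± 0.08 (adjusted p = 0.000852) and the call held in all 15 alternatives.

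Lss, the cyclase that closes oxidosqualene to lanosterol, lies at chr10:76531588-76557138. It was at 10.4, 9.80 and 10.3 FPKM in vehicle and 14.9, 16.8 and 14.2 FPKM in sulfatide (log2 fold change 0.54 ± 0.10, adjusted p = 0.00731). The lowest sulfatide library was above the highest vehicle library, and the call held with any 1 library left out. Fdft1, which joins farnesyl diphosphate units to squalene, lies at chr14:63145150-63179578. It was at 76.0, 77.6 and 66.6 FPKM in vehicle and 94.97, 93.59 and 95.90 FPKM in sulfatide (0.37 ± 0.09, adjusted p = 0.0204). Its 3 sulfatide values were nearly equal, while vehicle replicate 4 was below the other vehicle libraries. The call of Fdft1 was lost without vehicle replicate 2 (adjusted p = 0.0619) or 4 (0.0655), without sulfatide replicate 1 (0.0621) or 3 (0.0769), or after rescaling to TPM (0.0525). A processed pseudogene, Gm6781, is 97.4% identical to Fdft1 over 1249 bases and is not a row of the deposited table. How fragments shared with it were placed is uncertain. Exons of Fdft1 and of the abundant cathepsin gene Ctsb overlap on opposite strands over 774 bases, and whether the authors counted by strand is not given. The mean level of Ctsb was 5603 FPKM under vehicle and 5566 FPKM under sulfatide (log2 fold change -0.01 ± 0.09, adjusted p = 0.952).

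**Figure D3:**
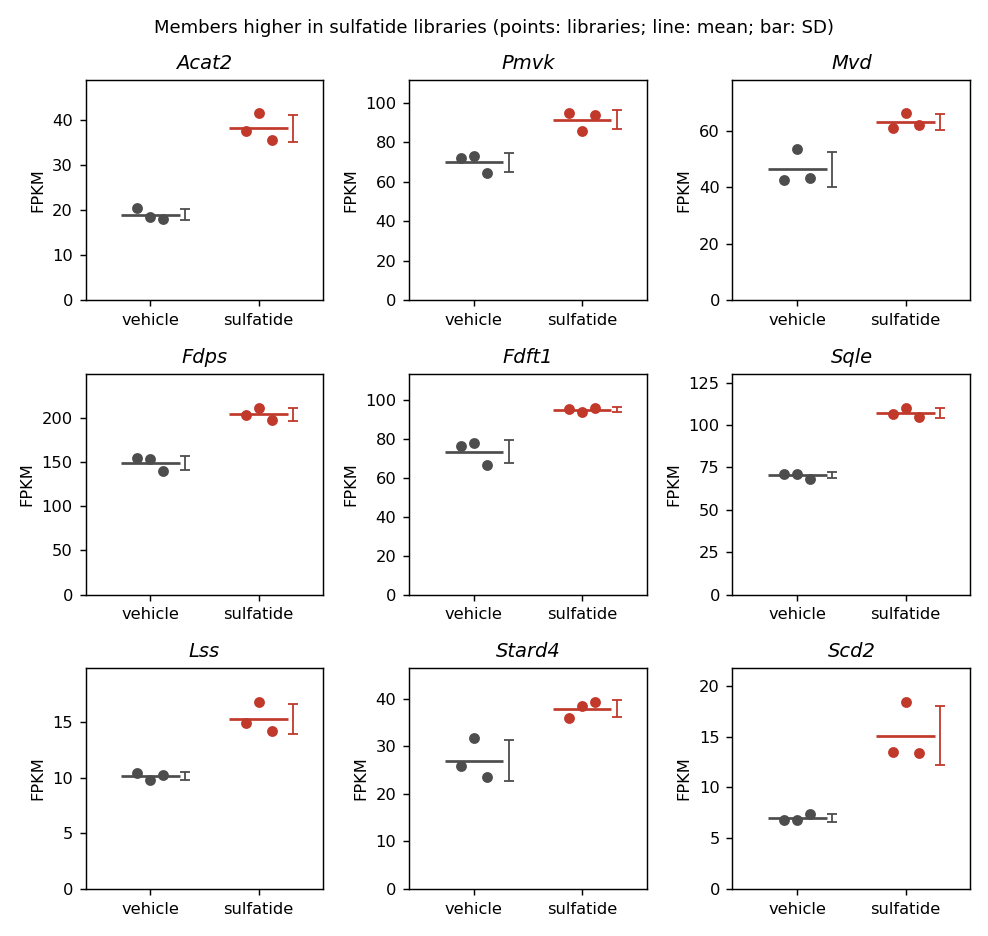
FPKM of the 9 genes that rose, by library (points; grey, vehicle; red, sulfatide), with the mean (line) and SD (bar beside it) of 3 libraries. In each panel the lowest red point is above the highest grey one, and the step is widest relative to the level in Acat2 and Scd2.

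None of the 8 enzymes from lanosterol to cholesterol passed the test, against 8.31% of all tested genes called higher and 10.4% called lower. A count of none among 8 genes is near these shares. Of the 8, 7 had a positive log2 fold change (median 0.22, range -0.37 to 0.29). Msmo1, the sterol C4 methyl oxidase, came nearest to the threshold with 155 ± 9.73 FPKM under vehicle and 190.3 ± 18.1 FPKM under sulfatide (SD, n = 3 each, adjusted p = 0.0590 by limma). Its groups did not overlap, nor did those of Ebp, the sterol isomerase (80.7 and 97.6 FPKM, adjusted p = 0.0978), or of Dhcr7, a reductase of the last steps (4.23 and 5.41 FPKM, adjusted p = 0.102). These 3 of 8 genes stand against 18.6% of all tested genes with every sulfatide library above every vehicle library. Cyp51, the lanosterol demethylase, had means of 94.2 and 111 FPKM (0.23 ± 0.10, adjusted p = 0.142). Tm7sf2, Nsdhl and Sc5d, a reductase, a dehydrogenase and a desaturase of these steps, had log2 fold changes of 0.21, 0.16 and 0.15 with overlapping groups. Part of the reads of Tm7sf2 cannot be placed with certainty, since its exons share 532 bases with Vps51 on the same strand.

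Hsd17b7, a ketoreductase of C4 demethylation, was the exception in sign. Its level was 3.96 ± 0.369 FPKM under vehicle and 2.90 ± 0.883 FPKM under sulfatide (SD, n = 3 each, log2 fold change -0.37 ± 0.17, adjusted p = 0.161 by limma). Sulfatide replicate 2 was at 3.87 FPKM, within the vehicle range, and the gene was called lower without it (adjusted p = 0.0374). Ebp was called higher without vehicle replicate 3 (adjusted p = 0.0177). That 3 enzymes passed in the step before and none here is not a test of a difference between steps, which was not made.

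**Figure D4:**
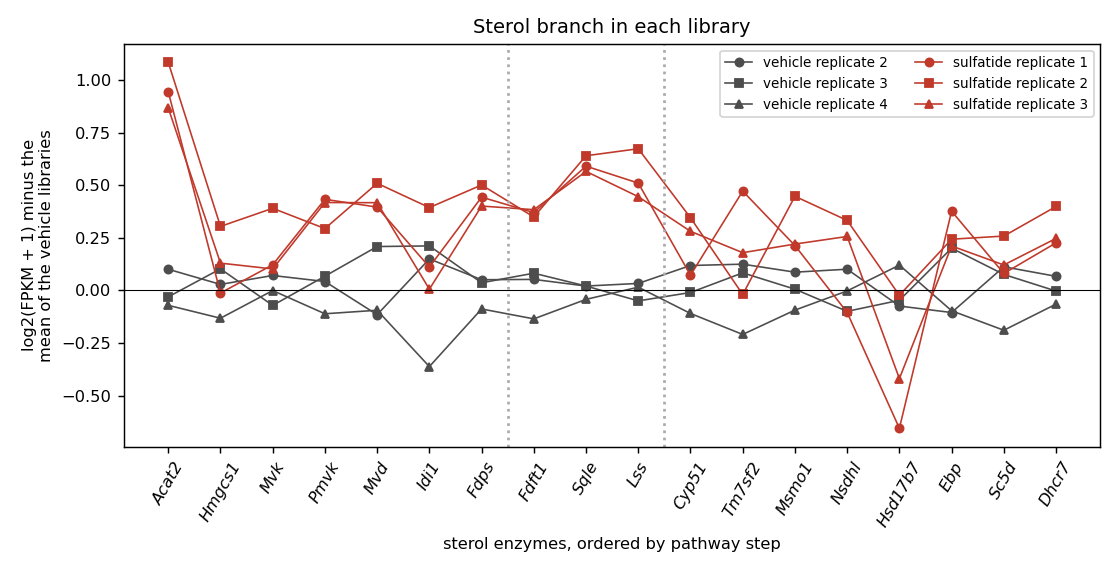
Log2(FPKM + 1) of the 18 sterol enzymes in each library minus the mean of the vehicle libraries, in the order of the pathway (grey, vehicle; red, sulfatide; dotted lines before the squalene steps and after lanosterol). The red lines run above the grey ones at the 7 enzymes that rose (Acat2, Pmvk, Mvd, Fdps, Fdft1, Sqle and Lss) and also at Mvk, Msmo1, Ebp and Dhcr7, overlap them elsewhere and drop at Hsd17b7, and the line of sulfatide replicate 2 is mostly the highest.

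Libraries of a group differed in sterol transcripts as a whole. The mean log2 level of the 18 enzymes was 5.12, 5.12 and 4.98 for vehicle (replicates 2, 3 and 4) and 5.33, 5.47 and 5.35 for sulfatide (replicates 1, 2 and 3), with no overlap. Vehicle replicate 4 was the lowest vehicle library for 12 of the 18 genes, and sulfatide replicate 2 the highest sulfatide library for 14. Some cell cycle genes also differed between the groups. Of 20 tested, 7 rose (35%, against 8.31% of all tested genes), 13 did not pass and none fell. The groups overlapped in the sum over the list, and their summed level was 757 to 1125 FPKM in vehicle and 1078 to 1645 FPKM in sulfatide. Vehicle replicate 4 had the lowest mean log2 level of both sets. The highest was sulfatide replicate 2 for the sterol enzymes and sulfatide replicate 1 for the cell cycle genes. Mean log2 levels of the cell cycle genes were 4.35, 4.89 and 4.01 under vehicle and, in the same order of libraries as above, 5.49, 5.08 and 4.67 under sulfatide. Group means were 4.42 under vehicle and 5.08 under sulfatide for the cell cycle genes, and 5.08 and 5.38 for the sterol enzymes. Vehicle replicate 3 exceeded sulfatide replicate 3 in the cell cycle genes. The part of cell division in the sterol result was not tested. The summed neutrophil list was also higher in sulfatide, at 134 to 184 FPKM in vehicle and 405 to 565 FPKM in sulfatide. Of its 5 tested genes 2 rose (40%, against 8.31% of all tested genes), Mmp8 and S100a8, which macrophages can express too and which held most of this sum. None was called lower, but the other 3 had negative log2 fold changes, and the median of the list was -0.15. Camp had means of 5.12 and 3.46 FPKM with no overlap of the groups (adjusted p = 0.0519 by limma). S100a9 had means of 21.9 and 21.2 FPKM, and Ly6g did not exceed 0.18 FPKM. The part of neutrophils in the result was not tested either.

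Of the genes that control the sterol branch, none passed the test, against 8.31% of all tested genes called higher and 10.4% called lower. Srebf2, the factor that chiefly drives sterol genes, was at 68.6, 64.6 and 71.5 FPKM in vehicle and 56.1, 62.8 and 55.4 FPKM in sulfatide. All 3 sulfatide libraries were below all 3 vehicle libraries, opposite to the enzymes. The log2 fold change was -0.23 ± 0.09 (adjusted p = 0.104), and it passed after rescaling to TPM (-0.34, adjusted p = 0.0342) and with weights for library quality (-0.27, adjusted p = 0.0176). Srebf1, the factor that chiefly drives fatty acid genes, was at 30.4, 31.7 and 33.5 FPKM in vehicle and 33.6, 35.9 and 31.7 FPKM in sulfatide. The groups overlapped (log2 fold change 0.08 ± 0.09, 95% interval -0.13 to 0.28, adjusted p = 0.583, and -0.03 after rescaling to TPM).

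The genes of the escort and retention proteins were not called either. Scap was at 11.5, 12.7 and 12.1 FPKM in vehicle and 13.5, 11.3 and 12.0 FPKM in sulfatide (log2 fold change 0.01 ± 0.11, 95% interval -0.22 to 0.25, and -0.09 after rescaling to TPM). Insig1, itself a target of SREBP factors, was at 44.1, 39.0 and 41.8 FPKM in vehicle and 40.6, 54.4 and 40.6 FPKM in sulfatide. Only sulfatide replicate 2 was above the vehicle range, and the log2 fold change was 0.11 ± 0.13 (95% interval -0.18 to 0.39), -0.03 without that library, -0.01 with weights for library quality and -0.00394 after rescaling to TPM. Insig2, the other retention protein, had means of 38.5 and 41.8 FPKM (0.12 ± 0.11, adjusted p = 0.508).

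Stard4, a soluble carrier that moves cholesterol between membranes, rose. It was at 25.8, 31.7 and 23.5 FPKM in vehicle and 35.9, 38.5 and 39.4 FPKM in sulfatide (log2 fold change 0.49 ± 0.12, adjusted p = 0.0228). The groups did not overlap, with vehicle replicate 3 nearest to the sulfatide libraries. The call of Stard4 was lost without vehicle replicate 2 (adjusted p = 0.0960) or 4 (0.0757) or sulfatide replicate 2 (0.0516) or 3 (0.0804).

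In the fatty acid branch, 1 of the 3 tested enzymes rose (33.3%, against 8.31% of all tested genes) and none fell. The median log2 fold change was 0.36, against 0.28 over the 18 sterol enzymes, a difference that was not tested. Over 3 genes this median is the value of Fasn, which did not pass. With no filter on low values, all 6 fatty acid enzymes entered, and the medians were 0.0992 for them and 0.28 for the sterol enzymes. Scd2, a stearoyl-CoA desaturase that makes monounsaturated fatty acids, had the largest log2 fold change of the 30 genes. It lies at chr19:44293674-44306864 and was at 6.74, 6.83 and 7.40 FPKM in vehicle and 13.5, 18.4 and 13.4 FPKM in sulfatide. The groups were far apart, and sulfatide replicate 2 was the highest library (log2 fold change 1.00 ± 0.14, adjusted p = 0.00123), and the call held in all 15 alternatives. Its paralogue Scd1, the main desaturase of liver, was at 0.00, 0.28 and 0.36 FPKM in vehicle and 0.21, 0.00 and 0.09 FPKM in sulfatide. Transcripts of the pair are 88.0% identical over 1195 bases, and Scd1 was near the floor in both groups.

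Fasn, fatty acid synthase, was at 3.46, 4.04 and 3.95 FPKM in vehicle and 4.95, 5.35 and 5.18 FPKM in sulfatide. The groups did not overlap, yet the adjusted p was 0.0552 (log2 fold change 0.36 ± 0.11). It passed with quantile normalization (0.0416), with weights for library quality (0.0116) and without an intensity trend in the variance (0.0368). Acly, which makes cytosolic acetyl-CoA for both branches, had means of 32.8 and 30.7 FPKM (-0.10 ± 0.11, adjusted p = 0.552). Acaca, the carboxylase that commits acetyl-CoA to fatty acids, was at 0.53 to 0.74 FPKM over all 6 libraries. Elovl6, which lengthens palmitate, was at 0.59, 0.18 and 0.48 FPKM in vehicle and 0.82, 0.49 and 0.58 FPKM in sulfatide, too low for a test.

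Related genes outside the 30 were taken from lists of enzymes and regulators. Of 9 tested sterol enzymes and partners, 2 rose (22.2%, against 8.31% of all tested genes) and none fell. The 2 were Acat3, whose fragments are hard to tell from those of Acat2, and the sterol-regulated membrane protein Tmem97 (40.1 ± 6.71 to 58.4 ± 3.84 FPKM, SD, n = 3 each, adjusted p = 0.0171 by limma). The call of Tmem97 was lost without vehicle replicate 2 (adjusted p = 0.0803) or 4 (0.0589). Of 11 genes that lead farnesyl diphosphate to other isoprenoids, 1 fell (9.09%, against 10.4% of all tested genes) and none rose. It was Coq2 of ubiquinone synthesis (19.9 ± 2.18 to 13.9 ± 1.90 FPKM, SD, n = 3 each, adjusted p = 0.0284 by limma), whose call was lost without vehicle replicate 2 (adjusted p = 0.0734) or 4 (0.0992), without sulfatide replicate 2 (0.0585) or 3 (0.0556), or with no filter on low values (0.0597). Of 8 genes for SREBP proteases and turnover of sterol sensors none passed, with log2 fold changes of -0.21 to -0.00155 (median -0.16). Of 7 LXR receptors and targets, which answer to oxysterols, none passed (median -0.10). Counts of none in such short lists stand against 8.31% of all tested genes called higher and 10.4% called lower.

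Of 23 fatty acid genes outside the 30, 18 were tested. Of these 2 rose (11.1%) and 1 fell (5.56%), shares near those of all tested genes (8.31% and 10.4%). Acsl1, which activates long-chain fatty acids, fell from 193 ± 21.2 to 92.5 ± 22.3 FPKM (SD, n = 3 each, 2.09-fold lower, adjusted p = 0.00215 by limma), and the call held in all 15 alternatives. Acsl3, a relative on lipid droplets, rose from 7.38 ± 0.372 to 10.2 ± 0.194 FPKM (SD, n = 3 each, adjusted p = 0.0209 by limma). This call was lost without vehicle replicate 2 (adjusted p = 0.0609) or 4 (0.0720), without sulfatide replicate 1 (0.0582) or 3 (0.0744), or after rescaling to TPM (0.0521). Fads2, the delta-6 desaturase, rose from 2.70 ± 0.933 to 4.69 ± 0.694 FPKM (SD, n = 3 each, adjusted p = 0.0490 by limma), and with 1 library left out it passed only without vehicle replicate 3 (adjusted p = 0.0144, otherwise 0.0617 to 0.154). Fads2 passed in 3 of 14 alternatives in all. It did not pass with a pseudocount of 0.1 (adjusted p = 0.0557) or 0.5 (0.0517), with no filter (0.107), after rescaling to TPM (0.0749) or without an intensity trend (0.0519).

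The largest difference among these related genes was in oxysterol synthesis. Ch25h, the enzyme that makes 25-hydroxycholesterol and that interferon induces, was at 47.2, 33.0 and 26.1 FPKM in vehicle and 6.07, 7.23 and 7.24 FPKM in sulfatide. The lowest vehicle library was well above the highest sulfatide one (5.18-fold lower in the mean, log2 fold change -2.18 ± 0.19, adjusted p = 0.000132), and the call held in all 15 alternatives. Of the 9 tested genes of oxysterol synthesis, esterification and release, 1 rose and 2 fell (11.1% and 22.2%, against 8.31% and 10.4% of all tested genes). Soat1, which esterifies cholesterol, rose from 95.8 ± 6.55 to 125 ± 11.1 FPKM (SD, n = 3 each, adjusted p = 0.0265 by limma). This call was lost without vehicle replicate 2 (adjusted p = 0.106), without sulfatide replicate 2 (0.0621) or 3 (0.0875), or after rescaling to TPM (0.0960). Npc2, a lysosomal cholesterol carrier, fell from 3227 ± 295 to 2285 ± 135 FPKM (SD, n = 3 each, adjusted p = 0.00789 by limma, and 0.0508 without vehicle replicate 2).

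**Figure D5:**
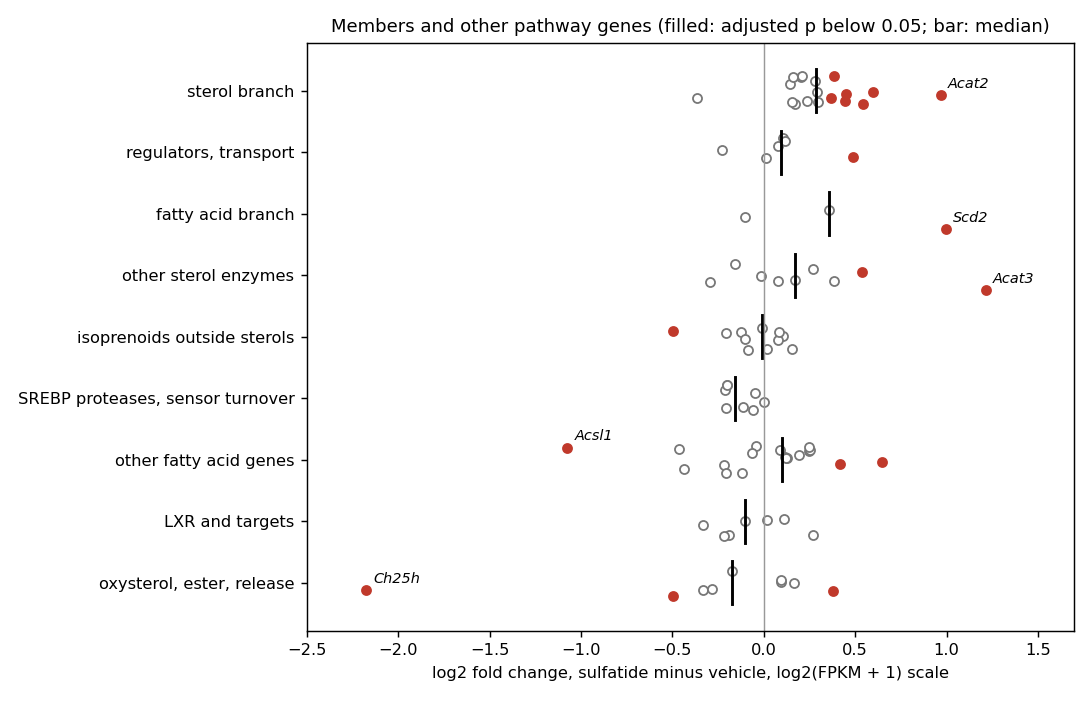
Log2 fold change (sulfatide minus vehicle, log2(FPKM + 1) scale) of each tested gene by list (filled red, adjusted p below 0.05; black bar, median of the list). Most sterol enzymes lie right of 0, the SREBP proteases and sensor turnover genes lie at it or to its left, and Ch25h stands alone at -2.18.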

How the data were processed

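Groups and replicate numbers were taken from sample titles. The authors deposited 1 table of FPKM, rounded to 2 decimals, and 3 of its value columns matched no sample and were not used. Reads were placed on mm10 (build from the submitters' processing notes), while the sources used here name no aligner, counter or annotation. Per the labels' protocols, libraries were poly(A)-selected and strand-specific. FPKM are not counts, so no count model was used. For genes at 1 FPKM or more in at least 3 libraries, log2(FPKM + 1) was compared with limma 3.58.1 in R 4.3.3 (eBayes with an intensity trend, 2-sided, Benjamini-Hochberg adjustment over 10405 genes). The method was tried on simulated data whose noise was independent between genes, so effects of a whole library were not covered. An exact permutation test of 3 against 3 cannot give a p below 0.1, so none was used. Folds are ratios of mean FPKM. Gene positions are from GENCODE M21 (GRCm38). Similar transcripts were found with blastn 2.17.0 (at least 200 bases). Genes, lists and tests were chosen with earlier results of these data known. Of the 30 genes, library values are given for those called with no overlap of the groups and for Srebf1, Srebf2, Insig1, Scap, Hmgcs1, Sqle, Fasn, Scd1, Scd2 and Elovl6, and up to 4 called genes were named per related list, by means. Ctsb, the marker genes and the values by library of Ch25h lie outside this rule and were picked after their values were seen. The 15 alternatives were a pseudocount of 0.1 or 0.5, omission of the filter or a minimum of 5 FPKM, rescaling to TPM, quantile normalization, array weights, no intensity trend, the replicate number as a block, and leaving out each of the 6 libraries.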

Additional observations from a re-analysis of the deposited data

How the results depend on the processing

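Over the 15 alternatives, 4 of the 9 calls (Acat2, Fdps, Sqle and Scd2) held in all, and none of the 9 changed sign. The median log2 fold change of the sterol branch was positive in all 15. That of the fatty acid branch was 0.0992 with no filter on low values, which added the genes under 1 FPKM, and it moved by less than the spread between replicates in the other 14. The number of genes called higher among all tested was 522 with no filter, 468 after rescaling to TPM and 2054 with array weights, and of those called lower 1723 with array weights. Of the 30 genes, 1 was called lower after rescaling to TPM and 1 with array weights, both times Srebf2.

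With 1 library left out, 5 to 10 of the 30 genes were called higher and 0 to 1 lower. Over all tested genes 263 to 1420 were called higher and 603 to 1136 lower. The vehicle and sulfatide groups share only replicate numbers 2 and 3. Deviations of same-numbered libraries from their group means correlated at 0.156 and -0.303 across genes, so the numbers were not taken as pairs. In a fit blocked on replicate number, 4 of the 30 genes were called higher, 297 of all tested genes higher and 635 lower, and neither Lss (adjusted p = 0.0594) nor Fads2 (0.220) passed.

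Changes of sign were seen in genes that were not called. After rescaling to TPM the log2 fold change was -0.0302 for Srebf1, -0.00394 for Insig1 and -0.0878 for Scap. With array weights that of Insig1 was -0.0117. The fit with this replicate block gave -0.0241 for Tm7sf2, -0.0114 for Insig2 and -0.0493 for Scap. With 1 library left out, the log2 fold change of Scap was -0.0500 (without sulfatide replicate 1) to 0.0665 and also negative without vehicle replicate 2 (-0.0200), that of Idi1 was -0.0103 (without vehicle replicate 4) to 0.277, and that of Insig1 was -0.0326 (without sulfatide replicate 2) to 0.175. Rescaling to TPM moved the median of all tested genes by -0.099. The cause of these changes of sign was not tested. Counts were not used, so depth could not set limits on low genes such as Scd1.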
